A study of Homo sapiens with 48 samples.

Results

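Doxorubicin-induced senescence of IMR-90 fibroblasts at day 7 was described here from 6 of 48 messenger RNA libraries: 3 libraries of cells given doxorubicin and a negative control siRNA, and 3 libraries of proliferating cells given the control siRNA alone. The 6 were chosen by their labels and not by any measured value. IMR-90 is a human line of fetal lung fibroblasts. Doxorubicin, an anthracycline that traps topoisomerase II on DNA, was added at 200 nM for 48 h the day after siRNA transfection, the cells were then kept without drug, and RNA was taken on day 7. The proliferating group had the transfection and no doxorubicin. The labels number the libraries 1, 2 and 3 in each group and do not say whether these were separate cultures. The spread behind each p-value of this comparison was estimated within groups over all 18 IMR-90 siRNA libraries. These take in doxorubicin-treated cells given siRNA against MFN1, MFN2, both of these or MAVS. That spread may be technical. Values are CPM, each gene's counts scaled to a common library total (TMM scaling). A gene was called higher or lower at an adjusted p below 0.05 in edgeR's quasi-likelihood test over all genes (Benjamini-Hochberg), fold changes are log2 doxorubicin over proliferating, and SE is the standard error of that log2 fold change.

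Senescence is a lasting exit from the cell cycle that cells enter after unrepaired DNA damage. In fibroblasts the damage kinases stabilise p53, p53 induces the CDK inhibitor p21 (CDKN1A), and the RB-family proteins and the DREAM complex then repress the genes of replication and mitosis. Senescent fibroblasts also lose lamin B1, enlarge their lysosomes and secrete cytokines, chemokines, proteases and growth factors, together called the senescence-associated secretory phenotype.

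The 3 genes given as markers of the state all changed in the direction named for senescence. CDKN1A (ENSG00000124762, GRCh38 chr6:36676460-36687339) had 1873, 1943 and 2165 CPM in the doxorubicin libraries, against 292, 290 and 370 CPM in the proliferating libraries, a log2 fold change of 2.65 (SE 0.13, adjusted p = 1.1e-08). LMNB1 (ENSG00000113368, chr5:126776623-126837020), which encodes lamin B1 of the nuclear lamina, had 5.37, 9.37 and 7.62 CPM with doxorubicin, against 242, 181 and 224 CPM in proliferating cells (log2 −4.86, SE 0.42, adjusted p = 4.6e-07). SULF2 (ENSG00000196562, chr20:47656348-47786616), an extracellular enzyme that removes 6-O-sulfate groups from heparan sulfate chains, had 23.6, 33.3 and 22.8 CPM with doxorubicin, against 0.0406, 0.0861 and 0.0402 CPM in proliferating cells (log2 8.90, SE 0.34, adjusted p = 4.7e-11). None of the 3 overlapped between the groups. The proliferating SULF2 values rest on 7 counts over the 3 libraries, set against 4048 counts with doxorubicin, and its adjusted p was the smallest of the 19077 genes tested.

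Several libraries stood apart, and this bears on the results that follow. TERT, the catalytic subunit of telomerase, had 571, 696 and 1313 CPM with doxorubicin, against 1962, 2502 and 1968 CPM in proliferating cells (log2 −1.32, SE 1.15, adjusted p = 0.35). These 6 values did not overlap between the groups. The SE takes in the siMAVS library described below, so this adjusted p does not show TERT to be unchanged. In the IMR-90 experiment at day 9, fitted separately, TERT had a log2 fold change of −1.07 (SE 0.22, adjusted p = 0.0022 in edgeR's test). The TERT levels of the 6 libraries were far above the 0.133 to 5.76 CPM of the 18 SK-MEL-103 melanoma libraries of the series, which were scaled separately. CDKN2A, which encodes the CDK inhibitor p16 and the p53 activator ARF, held 0, 0 and 89 counts with doxorubicin, against 0 counts in each proliferating library, and its chromosome 9 neighbour MTAP held 2 to 30 counts in 17 of the 18 IMR-90 siRNA libraries. The remaining library, siMAVS number 1, held 1 TERT count, 1872 CDKN2A counts and 1541 MTAP counts. It took no part in the contrast, but entered the count filter, the scaling and the estimate of spread. Leaving it out gave 10754 called genes in place of 9877 (51.8 % of those tested) and ended the call of 0 of the 241 called genes of the naming rule. TERT and MTAP were chosen after their values were seen, and the labels call all of these cells IMR-90 and mention no TERT construct.

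Some matrix genes were highest in doxorubicin library 3 and proliferating library 2. DCN, the proteoglycan decorin, had 44.2, 33.9 and 318 CPM with doxorubicin, against 19.5, 294 and 23.8 CPM in proliferating cells, and IGFBP5, an IGF-binding protein, had 1186, 482 and 3787 CPM, against 82.7, 1955 and 129 CPM. Neither gene was called, and both were chosen after their values were seen. For the collagen, matrix protease, heparan sulfate core protein, integrin and IGF lists, counts are therefore given below with and without proliferating library 2. Those of collagens are also given without doxorubicin library 3. The 18 fibroblast markers summed to 38360, 38840 and 56660 CPM with doxorubicin and 16230, 38940 and 15550 CPM in proliferating cells, and none was at 0 in every library. Of those 18, 2 were called higher and 5 lower, among them TWIST1 (log2 −2.0) and TWIST2 (−1.98), transcription factors of mesenchyme. Without proliferating library 2, 6 were called higher and 3 lower.

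Markers of other cell types were low. The melanocyte list summed to 28.9, 57.2 and 37.8 CPM with doxorubicin and 26.5, 17.8 and 28.3 CPM in proliferating cells, and MLANA and TYR held 0 counts in all proliferating libraries and 11 and 4 counts with doxorubicin. The epithelial list summed to 184, 215 and 142 CPM with doxorubicin and 241, 194 and 249 CPM in proliferating cells, nearly all of it from KRT18 and KRT8, and SFTPC of alveolar epithelium was at 0 counts throughout. The endothelial list summed to 45.1, 30.2 and 121 CPM with doxorubicin and 66.2, 99.6 and 53.7 CPM in proliferating cells, and KDR of endothelium held 0 counts in all proliferating libraries. The leukocyte list summed to 4.13, 4.20 and 4.47 CPM with doxorubicin and 4.40, 1.64 and 6.28 CPM in proliferating cells. Of 6 endothelial markers tested, 4 were called higher and 0 lower (median log2 fold change 1.39), and 2 were higher without proliferating 1 or 2. VWF, the clotting factor carrier of endothelium, had 1.84, 1.6 and 1.61 CPM with doxorubicin, against 0.663, 0.287 and 0.845 CPM in proliferating cells (log2 1.51), and the transcription factor ERG held 43 counts, against 0. Of 5 melanocyte markers tested, 2 were higher and 0 lower, with 1 higher without doxorubicin 2 or any 1 proliferating library and 3 without doxorubicin 1. They were the pigment enzymes TYRP1, with 508 counts against 62, and DCT, with 48 counts against 4. Of 5 epithelial markers tested, 2 were higher, the cadherin CDH1 (log2 1.75) and KRT14 (62 counts against 6), and 0 without proliferating 1. Of 6 leukocyte markers tested, 2 were higher, LYZ (71 counts against 6) and ITGAM (57 against 5), and 1 lower, CSF1R (log2 −1.43), with 0 lower when any library but proliferating 2 was left out, 1 higher without proliferating 1 or 3, and 3 higher without doxorubicin 1. The part of other cell types in the results was not tested. Mitochondrially encoded genes took 4.94, 3.79 and 3.81 % of counts with doxorubicin, against 0.958, 1.35 and 0.913 % in proliferating cells, and without these genes 9841 were called and 0 of the named calls were lost. Total counts were 68488596, 50828283 and 29536519 in the doxorubicin libraries and 79204217, 38315688 and 24507142 in the proliferating libraries. In these bulk libraries a lower value can come from fewer cells that express a gene or from less of its RNA per cell, and the 2 cannot be told apart.

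Of 19077 genes tested, 5223 were called higher (27.4 %) and 4654 lower (24.4 %), and the median log2 fold change of all genes was 0.09. The 3 values of each group did not overlap for 55.7 % of genes. At a change of at least 2-fold, 3993 were higher (20.9 %) and 1993 lower (10.4 %). The count filter ran over all 18 IMR-90 siRNA libraries, 15 of them with doxorubicin, so a gene could pass it through the doxorubicin libraries alone. Of the genes called higher, 248 had 0 counts in the proliferating libraries and 395 had 1 to 3 counts together. These shares and this median are the background against which each gene group below is read. The shares varied with level. Of 5338 genes with a mean log2 CPM below 0, 43.9 % were higher and 4.25 % lower. Of 4425 genes with a mean log2 CPM of 5 to 7, 15.2 % were higher and 40.4 % lower. The groups were described by their counts and medians alone.

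The 12 highest fold changes among called genes whose groups did not overlap and whose mean log2 level reached 2 are given first. ANGPTL4 (ENSG00000167772, chr19:8363289-8374373), a secreted inhibitor of lipoprotein lipase, had 158, 109 and 102 CPM with doxorubicin, against 1.08, 1.92 and 0.443 CPM in proliferating cells (log2 6.70, SE 0.56, adjusted p = 3.4e-07). Below it came EHF (6.08), an ETS factor best known from epithelia, TNFSF15 (5.85), a ligand of the TNF superfamily, complement C3 (5.68), CXCL1 (5.55), the adhesion molecule L1CAM (5.26) and CXCL8 (5.07). The list went on with the microRNA host transcript MIR3142HG (4.72), PAPPA (4.55), the potassium channel KCNK6 (4.45), the inositol phosphatase INPP5D (4.27) and the tetraspanin TSPAN13 (4.17). The naming rule itself kept only genes with no overlap. Leaving out 1 library moved MIR3142HG to 4.0 (without doxorubicin 1), INPP5D to 3.58 (without doxorubicin 2) and TSPAN13 to 5.01 (without proliferating 2), with the call kept.

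The 12 lowest by the same rule were NCAPH (−4.99), CDCA7 (−4.95), CDC20 (−4.91), SAPCD2 (−4.89), PKN3 (−4.88), LMNB1 (−4.86), NUF2 (−4.73), AURKB (−4.72), PLK4 (−4.71), CDKN2C (−4.71), MCM10 (−4.63) and APOBEC3B (−4.63). PKN3, a kinase of the protein kinase C-related family, had 0.59, 1.17 and 1.10 CPM with doxorubicin, against 28.1, 24.5 and 29.2 CPM in proliferating cells, and APOBEC3B, a cytidine deaminase, had 1.04, 1.39 and 2.05 CPM, against 30.2, 37.4 and 38.6 CPM. E2F2 (−5.05) had a lower value than all of these but lay under the level minimum. The plot of CPM by library shows how closely the replicates lie for the arrest genes and how far they spread for the inflammatory ones.

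**Figure D1:**
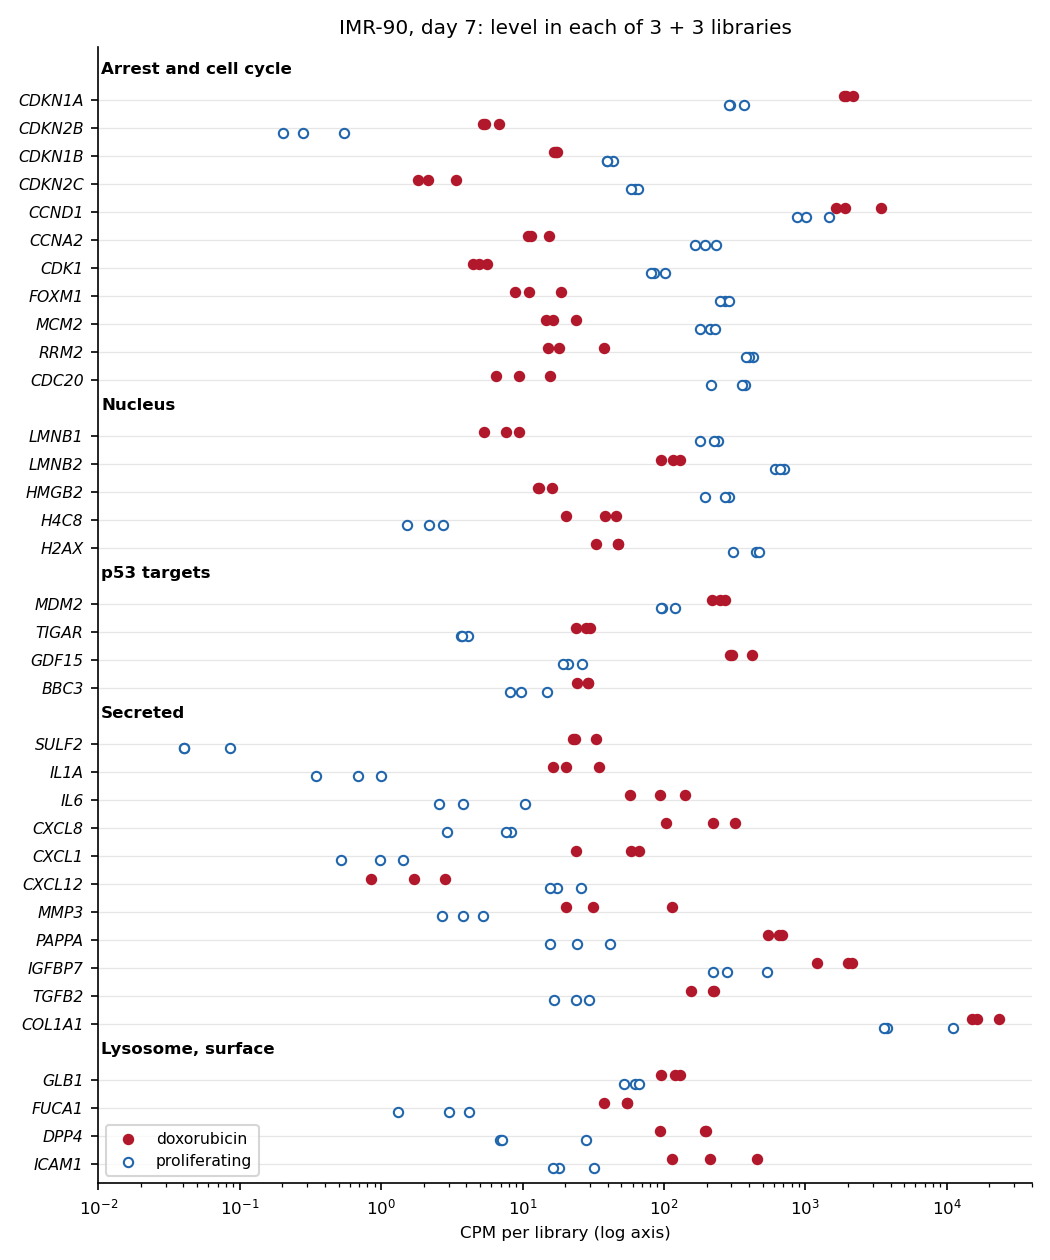
CPM of 35 named genes in each library on a log axis, doxorubicin libraries as filled red points above and proliferating libraries as open blue points below. CDKN1A lies at 1873 to 2165 CPM with doxorubicin and 290 to 370 CPM in proliferating cells, and SULF2 at 22.8 to 33.3 CPM and 0.0402 to 0.0861 CPM.

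Among the CDK inhibitors, 2 of the 8 tested rose and 4 fell. CDKN2D (log2 −0.89, adjusted p = 0.048) was among those that fell, and its call was lost with any 1 library but doxorubicin 3 left out. CDKN2B, which encodes p15 and lies next to CDKN2A, had 5.24, 5.46 and 6.85 CPM with doxorubicin, against 0.203, 0.545 and 0.282 CPM in proliferating cells (log2 4.18, SE 0.98, adjusted p = 0.0026), so that it and CDKN1A were the 2 that rose. CDKN2C, which encodes p18 and is itself an E2F target, fell to 1.83, 2.14 and 3.41 CPM with doxorubicin, against 62.4, 65.8 and 58.4 CPM in proliferating cells. CDKN1B, which encodes p27, had 17.4, 16.7 and 17.6 CPM with doxorubicin, against 43.6, 39.8 and 39.5 CPM in proliferating cells (log2 −1.25, SE 0.17, adjusted p = 2.7e-05). CDKN2A gave 89 counts in doxorubicin library 3 alone and CDKN1C, which encodes p57, had a log2 fold change of 0.10 (adjusted p = 0.91), with the groups overlapping. The arrest at day 7 came with higher p21 and p15 messages and lower p18 and p27 messages.

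Of 15 cyclins and CDKs, 8 fell and 6 rose. The mitotic kinase CDK1 had 4.91, 4.50 and 5.64 CPM with doxorubicin, against 102, 84.4 and 81.1 CPM in proliferating cells (log2 −4.16, SE 0.39, adjusted p = 8.2e-07), and the cyclins CCNA2 (−3.98) and CCNB1 (−3.64), which pair with it, fell with it. The D-type cyclin CCND2 went the other way: it held 1432 counts over the doxorubicin libraries and 3 over the proliferating ones, a ratio of 423 after scaling (95 % counting interval 144.5 to 2054). CCNG2, a cyclin linked to arrest, rose (log2 1.35, SE 0.23, adjusted p = 0.00021). CCND1, which drives CDK4 and CDK6 early in the cycle, had 1895, 1640 and 3428 CPM with doxorubicin, against 1009, 1470 and 878 CPM in proliferating cells (log2 1.05, adjusted p = 0.033), and its call was lost without doxorubicin 3 (0.65, adjusted p = 0.18), proliferating 1 (0.98, 0.099) or proliferating 3 (0.89, 0.11).

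The RB-family, E2F and DREAM list had 0 members higher and 15 of 20 lower, with a median log2 fold change of −1.34. The activating factor E2F2 fell to 0.201, 0.186 and 0.513 CPM with doxorubicin, against 8.57, 7.37 and 10.3 CPM in proliferating cells (log2 −5.05, SE 0.40, adjusted p = 2.3e-07). FOXM1 and MYBL2, which switch on the late genes of the cycle, fell by 4.40 and 4.10 on the log2 scale. The pocket proteins did not move alike: RBL1, itself cell-cycle regulated, fell by 3.52, RB1 by 1.15, and RBL2, which holds the DREAM complex in resting cells, had a log2 fold change of −0.12 (adjusted p = 0.49). RBL2 had 46.5, 44.8 and 42.1 CPM with doxorubicin, against 45.9, 53.2 and 45.8 CPM in proliferating cells, and was chosen after its values were seen.

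The replication genes fell almost without exception. Of 25 genes of origin licensing and firing, 24 were lower and 0 higher (median −3.14), and ORC3, a subunit of the origin recognition complex, was the one not called (log2 −0.25, adjusted p = 0.058). MCM10, which activates the replicative helicase, had 1.99, 2.47 and 2.23 CPM with doxorubicin, against 60.8, 44.9 and 60.1 CPM in proliferating cells. Of 30 genes of the replication fork and nucleotide supply, 29 were lower (median −2.52). The exception was RRM2B, the p53-induced subunit of ribonucleotide reductase, which had 175, 197 and 128 CPM with doxorubicin, against 62.8, 42.2 and 64.2 CPM in proliferating cells (log2 1.56, SE 0.21, adjusted p = 2.4e-05). Its S-phase counterpart RRM2 (ENSG00000171848, chr2:10120698-10131419) moved the opposite way, with 15.1, 18 and 37.8 CPM with doxorubicin, against 425, 396 and 377 CPM in proliferating cells (log2 −4.09, SE 0.51, adjusted p = 1.4e-05).

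All 34 genes of the kinetochore, spindle and cytokinesis list fell, with a median log2 fold change of −3.82, and all 34 stayed called with each library left out in turn. CDC20 (ENSG00000117399, chr1:43358955-43363203), the activator of the anaphase-promoting complex, had 6.52, 9.48 and 15.8 CPM with doxorubicin, against 373, 217 and 354 CPM in proliferating cells (log2 −4.91, SE 0.57, adjusted p = 7.1e-06). SPC25, a subunit of the NDC80 complex that binds microtubules, had 0.777, 0.948 and 1.5 CPM, against 22.9, 24.7 and 21.2 CPM. The smallest fall was that of the checkpoint protein BUB3 (−1.17). All 19 condensin and cohesin genes fell (median −2.35), from NCAPH of condensin I, with 1.93, 3.20 and 2.20 CPM against 84.9, 68.2 and 80.3 CPM, to members near −0.84.

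Promoters of late cell-cycle genes are known to carry a cell-cycle homology region (CHR), TTTGAA, through which DREAM and the MuvB-FOXM1 complex bind, often downstream of CCAAT boxes. The promoters printed here, 60 bases each from RefSeq (GRCh38.p14), are those of mitotic genes with large falls, CENPA and PLK1 having been chosen after their values were seen. They read 5′ to 3′ on the strand of the gene, and capitals mark a match to TTTGAA, which need not be the CHR in use.
CDC20, chr1:43358889-43358948, plus strand: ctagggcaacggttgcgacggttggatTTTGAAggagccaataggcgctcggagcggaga
SPC25, chr2:168890621-168890680, minus strand: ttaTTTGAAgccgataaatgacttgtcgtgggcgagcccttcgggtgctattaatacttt
CENPA, chr2:26785996-26786055, plus strand: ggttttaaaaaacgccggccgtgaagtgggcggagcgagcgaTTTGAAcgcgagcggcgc
PLK1, chr16:23678829-23678888, plus strand: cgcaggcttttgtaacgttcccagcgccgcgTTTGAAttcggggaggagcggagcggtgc
In all of them the motif lies on the strand of the gene. The SPC25 match lies 247 bases before the start, farther upstream than its CCAAT boxes, and another TTTGAA begins 3 bases before the start. CDC20 also holds another match, farther upstream than the one shown. TTTGAA on either strand was in 17 of the 26 kinetochore-list promoters in the RefSeq table (65.4 %, from 250 bases before to 50 after the start). It was in 15.4 % of all 27305 promoters. Of the 19077 genes tested, 14241 were looked up and 11474 of them had a promoter, 10.2 % with the motif. Among these promoters TTTGAA was in 37.7 % of the 175 of genes that fell at least 8-fold. It was in 10.5 % of the 1867 of genes that rose at least 2-fold. The licensing list, whose members are S-phase genes, had it in 1 of 22 promoters (4.55 %). CCAAT on either strand was in 19 of the 26 kinetochore-list promoters (73.1 %) and in 35.7 % of all promoters. The motifs were searched separately on both strands, and a match describes letters in the window, not binding.

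Most genes of the recombination and damage-checkpoint lists fell. All 24 homologous recombination and Fanconi genes fell (median −3.07), such as RAD54L, a motor protein of strand exchange, with 1.71, 1.34 and 1.35 CPM with doxorubicin, against 34.0, 29.8 and 34.2 CPM in proliferating cells. Of 21 damage-checkpoint genes, 15 fell and 2 rose. The risers were the damage kinase ATM (log2 0.30, adjusted p = 0.026) and TP53BP1 (0.38), and leaving out doxorubicin 1 or proliferating 3 left 0 risers. H2AX, the histone phosphorylated at breaks, had 33.3, 47.1 and 47.4 CPM with doxorubicin, against 446, 305 and 470 CPM in proliferating cells (log2 −3.26, SE 0.26, adjusted p = 2.1e-07).

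The histone genes split in opposite directions. Replication-dependent histone messages normally end in a stem loop without a poly(A) tail, and these libraries were made from poly(A) RNA. Of 40 such genes 24 passed the count filter, 13 of them were higher and 2 lower (median 1.29). H4C8 had 38.2, 45.6 and 20.2 CPM with doxorubicin, against 2.76, 1.52 and 2.17 CPM in proliferating cells (log2 3.98, SE 0.43, adjusted p = 3.6e-06), and H2AC6 had 125, 121 and 96.7 CPM, against 25.1, 9.55 and 24.2 CPM (log2 2.54). H1-5 was one of the 2 that fell, on 6 counts with doxorubicin and 92 in proliferating cells. Replacement histones, whose messages carry poly(A) tails, went the other way, with 8 of 10 lower and 1 higher. The riser, H2AJ, an H2A variant reported to gather in senescent fibroblasts with DNA damage, had 45.4, 30.7 and 55.4 CPM with doxorubicin, against 20.1, 22.8 and 21.9 CPM in proliferating cells (log2 1.02, SE 0.19, adjusted p = 0.00055), while the variant H2AZ1 fell by 2.07. Histone genes are close copies of each other, how the authors counted reads with several positions is not given in the sources used here, and values of single members are uncertain.

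The nuclear envelope and chromatin proteins followed the division genes. Of 15 lamina and envelope genes tested, 13 fell and 0 rose (median −1.32). TMPO, which encodes the lamina-associated proteins LAP2, had 16.8, 19.0 and 22.4 CPM with doxorubicin, against 320, 305 and 299 CPM in proliferating cells, and the lamin B receptor LBR fell by 3.17. LMNA, which encodes the A-type lamins, fell by less, with 472, 464 and 721 CPM against 1187, 1405 and 1161 CPM (log2 −1.18, SE 0.26, adjusted p = 0.0018). Of 25 HMG and heterochromatin genes, 24 fell and 0 rose (median −2.08). HMGB1 and HMGB2, DNA-bending proteins that senescent cells are known to lose, fell by 2.44 and 4.17: HMGB2 (ENSG00000164104, chr4:173331695-173335125) had 13.1, 12.8 and 16.1 CPM with doxorubicin, against 289, 195 and 271 CPM in proliferating cells. UHRF1, which guides maintenance DNA methylation, fell by 3.92 and EZH2, the Polycomb methyltransferase, by 3.34.

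**Figure D2:**
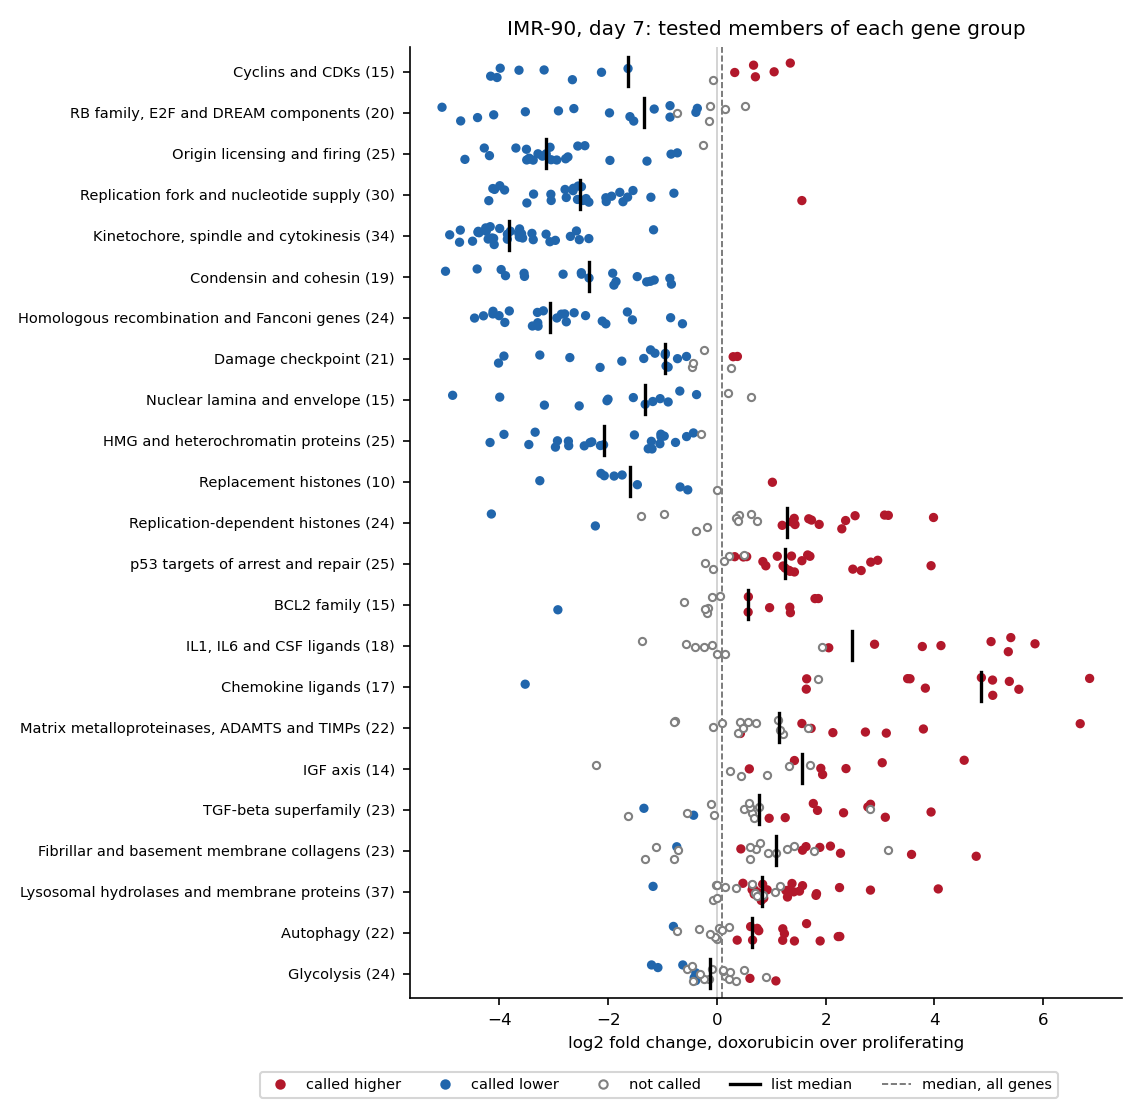
Log2 fold change of the tested members of 23 gene groups, 1 point a gene, red where called higher, blue where called lower and open where not called, with the median of each list as a black bar and the median of all genes (0.09) dashed. Genes with 3 or fewer counts in the proliferating libraries are left out of the points but not of the medians, and kinetochore genes (median −3.82) and chemokines (4.86) mark the ends.

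Most p53 target genes rose. Of 25 p53 targets of arrest and repair, 20 were higher and 0 lower (median 1.25), and 19 or 20 were called higher with each library left out. TIGAR, which lowers glycolytic flux, had 27.9, 29.8 and 23.8 CPM with doxorubicin, against 3.65, 4.10 and 3.74 CPM in proliferating cells (log2 2.83, SE 0.19, adjusted p = 7.9e-08). TP53INP1, a cofactor of p53 in stress responses, rose by 2.46 on the log2 scale, and MDM2, the ligase that degrades p53, had 249, 272 and 219 CPM, against 97.4, 95.5 and 120 CPM (log2 1.24, SE 0.18, adjusted p = 6.5e-05). GDF15 (ENSG00000130513, chr19:18374731-18389176), a secreted stress cytokine, had 302, 294 and 419 CPM with doxorubicin, against 20.8, 19.4 and 26.1 CPM in proliferating cells. The p53 decamer motif was in 4 of the 21 target promoters in the RefSeq table (19 %) and in 6.54 % of all promoters, a short window that misses distal sites. Lists that fell held it too, in 3 of 22 licensing promoters (13.6 %) and 3 of 26 kinetochore-list promoters (11.5 %). It was in 5.84 % of promoters searched of genes that rose at least 2-fold and in 5.61 % of those that fell as much.

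The BCL2 family held pro- and anti-apoptotic members among its 8 that rose, beside 1 that fell, of 15 tested. The BH3-only genes PMAIP1 (NOXA, log2 1.35) and BBC3 (PUMA, 1.34), which promote apoptosis, were higher, as were the protective genes BCL2L1 (0.57) and BCL2L2 (0.97). BCL2, a protective gene, had 1.5, 1.36 and 1.35 CPM with doxorubicin, against 10.3, 11.3 and 10.6 CPM in proliferating cells (log2 −2.92, SE 0.32, adjusted p = 4e-06). The effector BAX (0.05, adjusted p = 0.77) and the protective MCL1 (−0.17, adjusted p = 0.29) did not pass the test. Without doxorubicin 2, 5 members were higher in place of 8. BCL2L1, BCL2L2, BBC3, BAX and MCL1 were chosen after their values were seen.

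Of 15 long noncoding RNAs tested, 9 rose and 4 fell, the falls being snoRNA host genes such as SNHG1 (log2 −1.09). PURPL, a p53-induced RNA that restrains p53, had 8.03, 5.46 and 14.2 CPM with doxorubicin, against 0.0677, 0.143 and 0.0402 CPM in proliferating cells (log2 6.74, SE 0.72, adjusted p = 1.9e-06). PINCR, another p53-induced RNA, held 639, 588 and 47 counts with doxorubicin and 0 in each proliferating library, which makes it at least 376-fold higher against a floor of 3 counts over the group. LINC-PINT, a p53-linked RNA, had 18.4, 16.4 and 26.4 CPM, against 1.72, 1.95 and 1.53 CPM (log2 3.54). The snoRNA hosts SNHG12 and GAS5 lost their call when most single libraries were left out, and with doxorubicin 2 left out 2 members were lower in place of 4.

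Heparan sulfate, the sugar chain on which SULF2 acts, binds growth factors and chemokines at the cell surface, and its 6-O-sulfates set that binding. Of 18 sulfatase and heparan sulfate enzyme genes, 6 rose and 4 fell (median 0.10), so that SULF2 stood far from the rest of its list. The closest paralogue, SULF1, held 86 counts over the doxorubicin libraries and 11 over the proliferating ones, all 11 of them in proliferating library 2 (adjusted p = 0.30). XYLT2, which starts the chains, rose by 0.94 and the N-sulfating enzyme NDST1 by 0.68, while HS3ST3A1, a 3-O-sulfotransferase, had 19.3, 25.3 and 20.3 CPM with doxorubicin, against 75.8, 44.7 and 73.0 CPM in proliferating cells (log2 −1.58). HS6ST2, which adds the sulfates that SULF2 removes, held 43 counts with doxorubicin and 0 in proliferating cells, at least 12.7-fold higher. Among the core proteins, 3 of 12 tested rose and 2 fell: SDC4 had 645, 463 and 393 CPM, against 187, 271 and 135 CPM (log2 1.34), and SDC1 had 97.8, 144 and 84.8 CPM, against 291, 187 and 295 CPM (log2 −1.24). Without proliferating library 2, 5 core proteins were higher in place of 3. NDST1 was chosen after its values were seen.

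Of the interleukin-1, interleukin-6 and colony-stimulating ligands, 10 of 18 tested rose and 0 fell (median 2.48), and 9 or 10 were called higher with each library left out. IL1A, an upstream trigger of the secretory programme in senescent fibroblasts, had 34.8, 20.4 and 16.5 CPM with doxorubicin, against 1.00, 0.344 and 0.684 CPM in proliferating cells (log2 5.04, SE 1.05, adjusted p = 0.0011). CSF2, which encodes GM-CSF, had 19.2, 12.6 and 7.66 CPM, against 0.379, 0.373 and 0.121 CPM (log2 5.36). LIF, a ligand of the interleukin-6 family chosen after its values were seen, had 98.5, 100 and 222 CPM, against 14.5, 29 and 13 CPM (log2 2.90). IL11, from the same family and also chosen afterwards, had a log2 fold change of −0.40 (adjusted p = 0.45). TNFSF15 had 35.4, 61.9 and 19.3 CPM, against 0.704, 0.430 and 0.925 CPM, and in the doxorubicin group its highest library was 2, where CXCL1 had its lowest value.

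Of 17 chemokine genes tested, 14 were called higher and 1 lower, with a median log2 fold change of 4.86. Of the 17, 4 had 3 or fewer counts in the proliferating libraries. Such genes could pass the count filter through the doxorubicin libraries alone and could then hardly be called lower, so the count of 14 leans upwards. The median becomes 3.83 when these 4 are set at their ratio or lower bound. CXCL1 (ENSG00000163739, chr4:73869393-73871242), which attracts neutrophils through CXCR2, had 58.7, 24.0 and 67.1 CPM with doxorubicin, against 1.44, 0.976 and 0.523 CPM in proliferating cells (log2 5.55, SE 0.91, adjusted p = 0.00015). CCL20, which attracts cells bearing CCR6, had 15.7, 4.22 and 5.82 CPM, against 0.135, 0 and 0 CPM (log2 6.85, adjusted p = 0.00043), and the value was 11.54 without proliferating 1 and 6.05 without doxorubicin 1. The homeostatic chemokine CXCL14 held 63 counts with doxorubicin and 0 in proliferating cells, at least 18.6-fold higher. CXCL12, a homeostatic chemokine of stromal cells, was the 1 that fell, with 1.70, 0.855 and 2.82 CPM against 17.5, 25.7 and 15.5 CPM (log2 −3.52, adjusted p = 0.014), and its call was lost without doxorubicin 1 (adjusted p = 0.051) or 2 (0.056).

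Promoters of inflammatory chemokines carry binding sites for NF-kB, the factor that interleukin-1 signalling activates. The stretches printed here, 60 bases each from RefSeq (GRCh38.p14), are from chemokine genes that rose. They read 5′ to 3′ on the strand of the gene, and capitals mark a match to the NF-kB consensus. The marked match follows the consensus on the opposite strand in CCL20, CXCL1 and CXCL6, and on the strand of the gene in CXCL10. CXCL6 and CXCL10 were chosen after their values were seen.
CCL20, chr2:227813738-227813797, plus strand: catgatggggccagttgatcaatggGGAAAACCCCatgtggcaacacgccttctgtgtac
CXCL1, chr4:73869290-73869349, plus strand: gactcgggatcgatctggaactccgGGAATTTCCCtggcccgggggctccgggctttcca
CXCL6, chr4:73836564-73836623, plus strand: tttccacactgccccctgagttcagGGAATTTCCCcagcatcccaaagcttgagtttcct
CXCL10, chr4:76023585-76023644, minus strand: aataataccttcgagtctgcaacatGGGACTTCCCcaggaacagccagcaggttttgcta
CXCL1 and CXCL6, which are neighbours on chromosome 4, carry the same 10 bases. The consensus, searched on both strands, was in 8 of the 16 chemokine promoters in the RefSeq table (50 %) and in 5.72 % of all promoters. Of the 1867 promoters searched of genes that rose at least 2-fold, 6.59 % held it. CXCL6 had 13.7, 4.05 and 3.11 CPM with doxorubicin, against 0.122, 0.0861 and 0.402 CPM in proliferating cells (log2 5.38), and CXCL10 had a log2 fold change of 5.07.

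The transcription factors of this response did not share one direction. Of 24 AP-1, NF-kB and C/EBP genes tested, 9 rose and 4 fell (median 0.39), and 6 rose without doxorubicin 3, proliferating 1 or proliferating 3. NFKBIZ, a nuclear partner of NF-kB that interleukin-1 induces, had 91.5, 83.8 and 173 CPM with doxorubicin, against 16.1, 16.8 and 8.17 CPM in proliferating cells (log2 3.07, SE 0.35, adjusted p = 6.7e-06). NFKB1, which encodes the p50 subunit, fell by 0.89, and RELA, which encodes p65 and was chosen after its values were seen, had a log2 fold change of 0.09 (adjusted p = 0.46). ATF3, a stress-induced factor, rose by 3.16. FOSL1, an AP-1 subunit of growing fibroblasts, fell by 1.64, and FOS was high in doxorubicin library 3 alone, with 2.03, 1.45 and 38.6 CPM against 1.22, 1.18 and 0.724 CPM (log2 3.64, and 0.69 with adjusted p = 0.58 without that library).

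Of 20 cytokine and chemokine receptors tested, 8 rose and 1 fell (median 0.55), 5 rose without doxorubicin 3, and 0 fell without doxorubicin 1 or 2. TNFRSF10D, a decoy receptor for TRAIL and a p53 target, had 420, 299 and 491 CPM with doxorubicin, against 104, 153 and 81.0 CPM in proliferating cells (log2 1.84, SE 0.27, adjusted p = 5.5e-05). IL13RA2, a decoy receptor for interleukin-13, had 0.547, 0.558 and 0.549 CPM, against 0.0812, 0.0574 and 0.0805 CPM (log2 2.84). CXCR4, the receptor of CXCL12, held 131 counts with doxorubicin and 1 in proliferating cells, a ratio of 116 (95 % counting interval 20.5 to 4621).

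Proteases of the matrix rose in 9 of 22 cases tested and fell in 0 (median 1.14). Without proliferating 2, 12 rose, and without proliferating 1, 6 rose. MMP3, the stromelysin that cleaves proteoglycans, had 31.6, 20.3 and 114 CPM with doxorubicin, against 3.80, 5.28 and 2.7 CPM in proliferating cells (log2 3.80, SE 0.82, adjusted p = 0.0014), and 2.7 on the log2 scale without doxorubicin 3. MMP12, a macrophage elastase, had 8.53, 6.08 and 4.91 CPM, against 0, 0.230 and 0 CPM (log2 6.68; 5.6 without proliferating 1 and 11.21 without proliferating 2). The collagenase inhibitor TIMP1, chosen after its values were seen, overlapped between the groups (log2 1.22, adjusted p = 0.13).

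In the plasminogen system 5 of 12 genes rose and 1 fell; 3 rose without proliferating 1 or 3, and 0 fell without doxorubicin 1 or proliferating 1. PLAT, the tissue plasminogen activator, had 1117, 847 and 1798 CPM with doxorubicin, against 187, 408 and 238 CPM in proliferating cells (log2 2.17, SE 0.29, adjusted p = 2.2e-05). SERPINE2, which inhibits thrombin and plasminogen activators, had 492, 398 and 534 CPM, against 123, 103 and 97.2 CPM (log2 2.14). PLAUR, the receptor of urokinase, was chosen after its values were seen: it had 144, 86.9 and 187 CPM, against 139, 161 and 95.2 CPM (log2 0.08, adjusted p = 0.88), with the groups overlapping.

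The insulin-like growth factor axis rose in 8 of 14 genes tested and fell in 0 (median 1.57). Without proliferating 1, 6 rose, and without proliferating 2, 11 rose. Without doxorubicin 2 or proliferating 2, 1 fell. PAPPA (ENSG00000182752, chr9:116153804-116402322), the protease that frees IGF from IGFBP4, had 688, 652 and 545 CPM with doxorubicin, against 15.5, 41.2 and 24.1 CPM in proliferating cells (log2 4.55, SE 0.49, adjusted p = 3.5e-06). STC2, an inhibitor of that protease, and IGFBP4, its substrate, were both chosen after their values were seen and rose by 1.94 and 1.91. IGFBP7, a secreted binding protein linked to senescence, had 2149, 1208 and 1995 CPM, against 278, 532 and 223 CPM (log2 2.37, SE 0.48, adjusted p = 0.00086). IGFBP3 had 2145, 694 and 1441 CPM, against 110, 335 and 75.5 CPM (log2 3.04, adjusted p = 0.019), and its call was lost without doxorubicin 1 (2.62, adjusted p = 0.058), proliferating 1 (2.79, 0.074) or proliferating 3 (2.67, 0.071).

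Of 23 EGF-family and angiogenic ligands tested, 9 rose and 3 fell, and 6 rose without proliferating 3. PDGFB, a mitogen for mesenchymal cells, had 23.2, 29.7 and 6.41 CPM with doxorubicin, against 0.487, 1.00 and 0.443 CPM in proliferating cells (log2 4.98, SE 0.59, adjusted p = 9.5e-06). FGF5, a fibroblast growth factor, went the other way, with 79, 137 and 88.8 CPM against 441, 406 and 333 CPM (log2 −1.95). VEGFA, chosen after its values were seen, overlapped between the groups (log2 0.43, adjusted p = 0.32). Of 23 TGF-beta superfamily genes tested, 9 rose and 2 fell (median 0.77), with 1 falling without proliferating 1. TGFB2 had 224, 224 and 155 CPM, against 29.7, 23.9 and 16.6 CPM (log2 3.10, SE 0.33, adjusted p = 3.2e-06), while TGFB1, also chosen afterwards, had a log2 fold change of −0.05 (adjusted p = 0.88). Follistatin (FST), which binds activins, fell by 1.34.

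**Figure D3:**
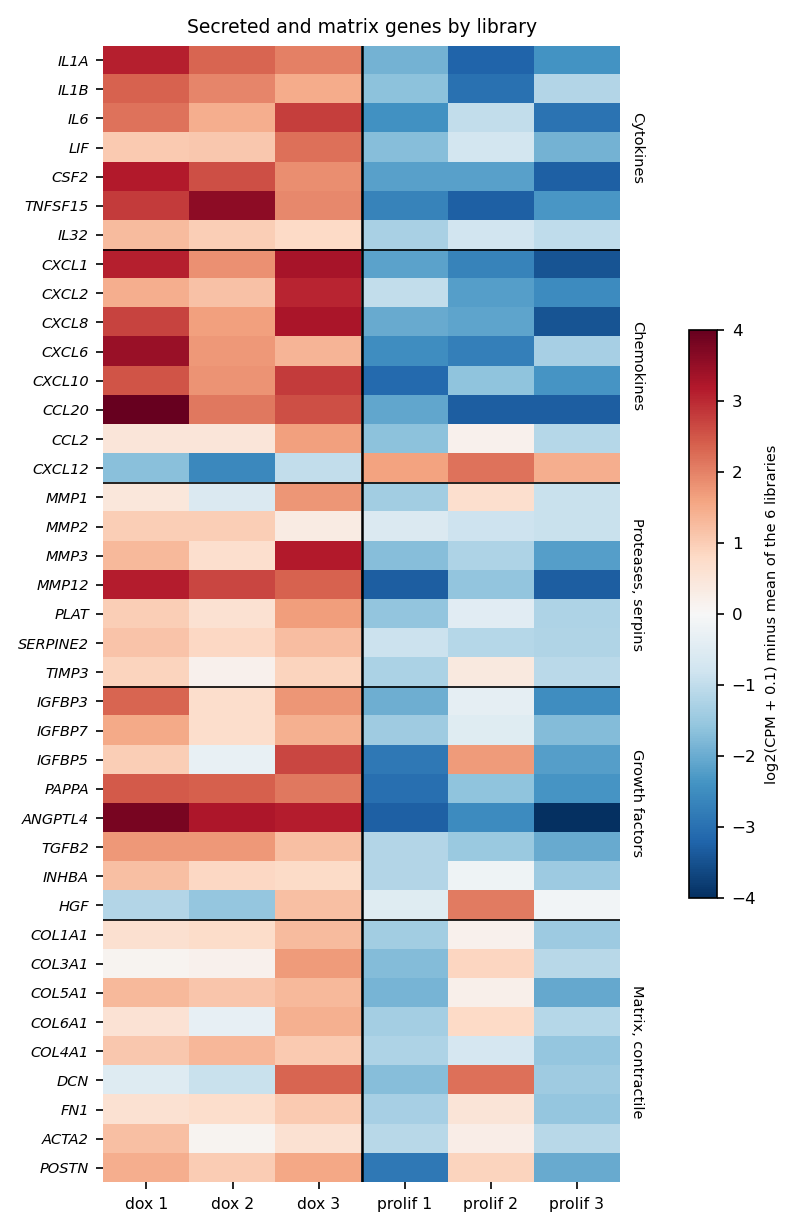
Heat map of 39 secreted and matrix genes, log2 of CPM plus 0.1 minus the mean of the row, with doxorubicin libraries 1 to 3 left of proliferating libraries 1 to 3. PAPPA, TGFB2 and COL4A1 separate the groups in every library, whereas DCN and HGF are highest in doxorubicin 3 and proliferating 2.

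The collagen counts moved with the libraries that stood apart. Of 23 collagen genes, 8 rose and 1 fell (median 1.08). Without proliferating 2, 16 rose, without doxorubicin 1, doxorubicin 2, proliferating 1 or proliferating 3, 6 rose, and without both doxorubicin 3 and proliferating 2, 9 rose and 1 fell. Without doxorubicin 3 alone, 3 fell. COL4A1 (ENSG00000187498, chr13:110148963-110307233), a chain of basement-membrane collagen IV, had 2354, 2828 and 2320 CPM with doxorubicin, against 472, 696 and 385 CPM in proliferating cells (log2 2.27, SE 0.30, adjusted p = 2.1e-05), with every doxorubicin library higher. The fibrillar chain COL1A1 had 15160, 16350 and 23190 CPM, against 3747, 11050 and 3586 CPM (log2 1.57, SE 0.62, adjusted p = 0.046), and its call was lost with any library but proliferating 2 left out (2.30, adjusted p = 0.011, without that library). COL3A1 had 699, 724 and 2089 CPM, against 191, 1170 and 299 CPM, which overlap (log2 1.08, adjusted p = 0.24; 2.25, adjusted p = 0.027, without proliferating 2). COL13A1, a transmembrane collagen, was the 1 that fell, with 62.1, 59.7 and 66.0 CPM against 113, 102 and 97.7 CPM (log2 −0.74).

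Among 16 integrins, 5 rose and 2 fell, with 3 rising without doxorubicin 1 or proliferating 3 and 6 without proliferating 2. ITGA11, a collagen receptor of fibroblasts, had 269, 296 and 247 CPM with doxorubicin, against 61.6, 60.9 and 55.6 CPM in proliferating cells (log2 2.19, SE 0.24, adjusted p = 4.9e-06). ITGA4, a fibronectin and VCAM1 receptor, had 52.7, 50.0 and 44.4 CPM, against 166, 154 and 115 CPM (log2 −1.56). Actin and contractile genes rose in 7 of 20 cases tested and fell in 3, with 3 rising without doxorubicin 1, proliferating 1 or proliferating 3 and 10 without proliferating 2. TPM1, a tropomyosin of stress fibres, had 2113, 1554 and 1162 CPM, against 752, 747 and 578 CPM (log2 1.22), and its relative TPM4 had 1375, 1180 and 1295 CPM, against 2283, 2747 and 2089 CPM (log2 −0.89). ACTA2, the smooth-muscle actin of myofibroblasts, overlapped between the groups (log2 1.21, adjusted p = 0.048; 0.89, adjusted p = 0.19, without doxorubicin 1).

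Lysosomal genes rose in 24 of 37 cases and fell in 1 (median 0.82). GLB1, the beta-galactosidase whose activity is the usual stain for senescent cells, had 120, 94.6 and 130 CPM with doxorubicin, against 62.9, 66.2 and 52.2 CPM in proliferating cells (log2 0.92, SE 0.17, adjusted p = 0.00039). FUCA1, a fucosidase and p53 target, had 54.4, 55.0 and 37.4 CPM, against 4.18, 1.32 and 3.02 CPM (log2 4.07, SE 0.42, adjusted p = 2.3e-06), and IDUA, which degrades dermatan and heparan sulfate, rose by 2.82. GUSB, the beta-glucuronidase often used as a reference gene, was the 1 that fell, with 19.8, 11.4 and 29.3 CPM against 41.5, 56.7 and 37.7 CPM (log2 −1.17). Autophagy genes rose in 13 of 22 cases and fell in 1 (median 0.64). GABARAPL1, a protein of the autophagosome membrane, rose by 2.23 and MAP1LC3B, another, had 266, 244 and 241 CPM, against 84.6, 84.7 and 70.3 CPM (log2 1.65), while ATG5 of the conjugation machinery fell by 0.80.

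Of 24 glycolysis genes, 3 rose and 6 fell (median −0.12) and without proliferating 1 only 1 rose and 2 fell, while 5 rose without doxorubicin 2. ENO1, an enolase, had 1358, 1108 and 1567 CPM with doxorubicin, against 3411, 2842 and 3027 CPM in proliferating cells (log2 −1.20). Among genes that handle doxorubicin, 0 rose and 11 of 22 tested fell. TOP2A, the proliferation-linked drug target, had 16.1, 25.4 and 23.3 CPM, against 546, 495 and 413 CPM (log2 −4.49, SE 0.40, adjusted p = 5.5e-07), and TOP2B, the isoform of non-dividing cells, had 63.7, 69.6 and 79.9 CPM, against 178, 174 and 148 CPM (log2 −1.23). NQO1, a quinone reductase, had 53.1, 50.9 and 94.1 CPM, against 773, 355 and 433 CPM (log2 −2.98). The efflux pumps ABCB1 (−0.54, adjusted p = 0.30) and ABCC1 (0.04, adjusted p = 0.85), chosen after their values were seen, did not pass the test. In the prostaglandin pathway 5 of 12 genes tested rose and 3 fell, and 2 rose without proliferating 1. PTGS2, the inducible cyclooxygenase, had 14.1, 21.1 and 40.8 CPM, against 4.10, 4.62 and 3.26 CPM (log2 2.64), and PTGER2, a receptor of its product, fell by 3.34.

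Surface proteins proposed as markers of senescent cells rose in 14 of 20 cases and fell in 1 (median 1.71). L1CAM had 37.9, 54.9 and 17.1 CPM with doxorubicin, against 0.948, 0.775 and 1.21 CPM in proliferating cells (log2 5.26, SE 0.77, adjusted p = 5.6e-05). DPP4, a dipeptidase reported on senescent fibroblasts and chosen after its values were seen, had 196, 93.4 and 197 CPM, against 6.89, 28.0 and 7.20 CPM (log2 3.53). AXL, a receptor kinase, was the 1 that fell, with 461, 451 and 524 CPM against 1262, 1176 and 1085 CPM (log2 −1.29). Of 24 genes read by immune cells, 13 rose and 1 fell (median 0.83). HLA-B had 1301, 621 and 1234 CPM, against 240, 527 and 202 CPM (log2 1.70), and ULBP1, a ligand of the activating receptor NKG2D, rose by 1.75, while MICB, another such ligand, fell by 0.67. VTCN1, the checkpoint ligand B7-H4, held 107 counts with doxorubicin and 0 in proliferating cells, at least 31.6-fold higher. CD274, which encodes PD-L1 and was chosen afterwards, had a log2 fold change of −0.90 (adjusted p = 0.17).

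More genes were detected at equal depth after doxorubicin. Thinned to 15206115 counts each, the doxorubicin libraries held 25916 ± 689.6 genes with a count, against 20384.7 ± 361.3 in proliferating libraries (SD, n = 3 each; exact permutation test, two-sided p = 0.1, the smallest that 3 against 3 allows). Protein-coding genes made up 16106 to 16348, against 13728 to 13979, lincRNA genes 2303 to 2592, against 1355 to 1491, antisense genes 2076 to 2430, against 1444 to 1621, and processed pseudogenes 1459 to 1635, against 1217 to 1329. At 10 or more counts the gap was smaller, 14687 to 15186 genes against 13656 to 13928. The ranges did not overlap for any of these counts. Processed pseudogenes share sequence with their parent genes, so their values are uncertain. In SK-MEL-103 the same thinning gave 23050 to 23514 genes with doxorubicin and 20661 to 20986 in proliferating cells.

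Across deciles of gene length, among genes that passed the filter, the median log2 fold change of protein-coding genes ran from 0.06 in the shortest to −0.15 in the eighth and 0.14 in the longest, where 29.9 % were higher and 22 % lower.

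**Figure D4:**
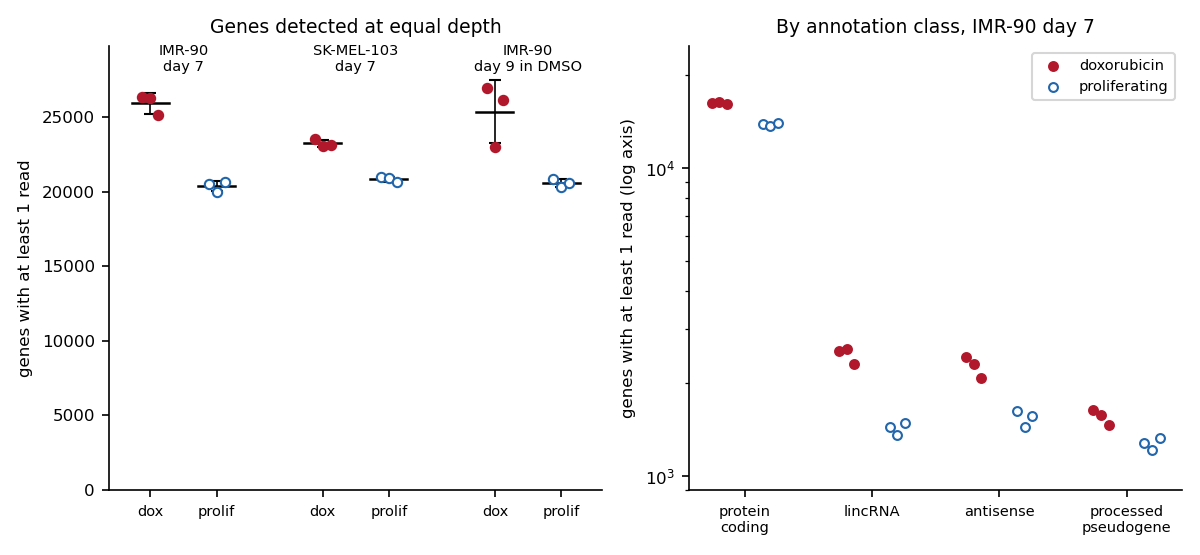
Left, genes with a count after thinning to equal depth in 3 experiments, each library as a point and the mean with its SD, doxorubicin left of proliferating. Right, genes with a count by annotation class in IMR-90 at day 7 on a log axis, each library as a point, where lincRNA genes lie at 2303 to 2592 with doxorubicin and 1355 to 1491 in proliferating cells.

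The same treatment of the melanoma line SK-MEL-103, with its own control siRNA libraries, shows where the fibroblasts differed. There 29.8 % of 17945 tested genes were higher and 30.6 % lower. Of the genes called higher in IMR-90 and tested in SK-MEL-103, 2321 of 3973 were also called higher (58.4 %) and 245 lower (6.17 %). Of those called lower in IMR-90, 3127 of 4528 were also called lower (69.1 %) and 276 higher (6.1 %). In 1 fit of the 36 libraries of both experiments the effect in IMR-90 minus that in SK-MEL-103 was called positive for 1914 of 20892 genes (9.16 %) and negative for 2724 (13 %). That split turned with the scaling: DESeq2 size factors gave 2511 positive and 1893 negative (median of all genes 0.13 in place of −0.03), DESeq2's own test 2812 and 2118, and a fit of only the groups compared 1932 and 1236. The line and the experiment cannot be told apart in this contrast.

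The kinetochore list had a median log2 fold change of −3.82 in IMR-90 and −5.28 in SK-MEL-103, and the difference was called positive for 16 of 34 members and negative for 1, and over the alternatives for 9 to 24 and for 0 or 1. RRM2 fell by 4.09 in IMR-90 and by 8.63 in SK-MEL-103, a difference of 4.43 (adjusted p = 0.00058). CBX5, which encodes heterochromatin protein 1 alpha, fell by 2.14 in IMR-90 and had a log2 fold change of 0.18 in SK-MEL-103 (difference −2.42, adjusted p = 6e-09), and CDKN1B fell in IMR-90 (−1.25) and rose in SK-MEL-103 (0.95). CBX5 was chosen after its values were seen. PKN3 was near 0 in SK-MEL-103 (0.05), a difference of −5.03 (adjusted p = 1.7e-09).

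Some chemokine genes, such as CXCL8, differed between the lines. In IMR-90 14 of 17 tested chemokine genes rose, and in SK-MEL-103 3 of 9 rose and 5 fell (median −1.24). These are unlike sets of tested genes, and 4 of the 17 had 3 or fewer counts in the proliferating IMR-90 libraries. The difference between the lines was called positive for 5 of 17 chemokine genes and negative for 0. CXCL8 had a log2 fold change of 5.07 in IMR-90 and −0.88 in SK-MEL-103, a difference of 5.86 (adjusted p = 0.00023), and CXCL1 had 5.55 and −1.24. IL1A had 5.04 in IMR-90 and −0.16 in SK-MEL-103, and GDF15 had 3.94 and −1.96. MMP3 had 3.80 and −6.29 (difference 9.97, adjusted p = 2.2e-05, and 4.99, adjusted p = 0.13, without SK-MEL-103 proliferating 2). JUP, which encodes the junction protein plakoglobin, had 151, 109 and 106 CPM with doxorubicin in IMR-90, against 8.10, 12.9 and 13.4 CPM in proliferating IMR-90, and 0.157, 0.251 and 0.0658 CPM with doxorubicin in SK-MEL-103, against 5.96, 0.640 and 3.09 CPM in proliferating SK-MEL-103.

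**Figure D5:**
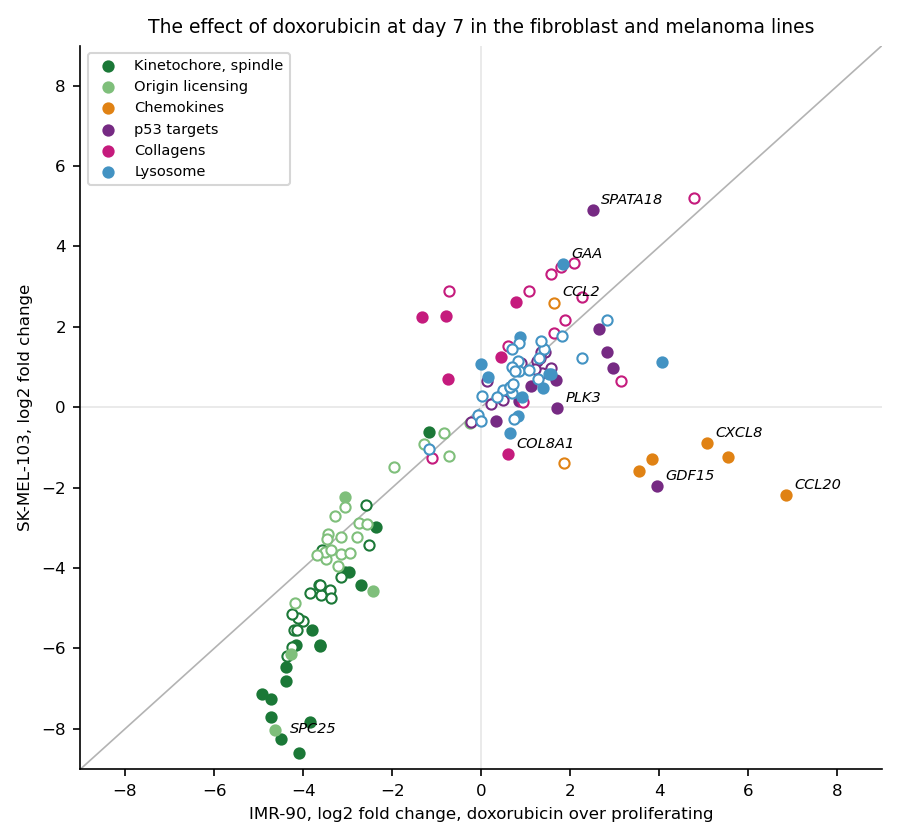
Log2 fold change of doxorubicin over proliferating in IMR-90 (horizontal) and SK-MEL-103 (vertical) for 6 gene groups, filled where the difference between the lines was called and open where it was not. Most kinetochore genes lie below the diagonal, with SPC25 at −4.49 and −8.25, and chemokines such as CCL20 lie at the right under 0, at 6.85 and −2.18.

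A separate IMR-90 experiment, with its own proliferating libraries, whose labels name no siRNA, took cells at day 9, with the last 48 h in the solvent DMSO, and 28.8 % of 19056 tested genes were higher there and 27.1 % lower. Of the genes called higher at day 7 and tested there, 3761 of 5013 were also called higher (75 %) and 1 lower, and of those called lower 3924 of 4639 were also called lower (84.6 %) and 2 higher. In 1 fit of 30 libraries, 0 of 20206 genes differed between the effects at an adjusted p below 0.05 (0 %), while 1214 (6.01 %) had an unadjusted p below 0.05, and DESeq2 called 20. The smallest adjusted p was 0.101. SULF2 had a log2 fold change of 8.90 at day 7 and 8.93 at day 9, and PAPPA 4.55 and 4.02. Some inflammatory genes had unequal values that did not pass this test: IL1A had 5.04 at day 7 and 1.77 at day 9, CXCL1 5.55 and 1.58, and 8 of 18 tested chemokine genes were called higher at day 9 (median 2.35). Day, transfection and solvent differ together between these experiments and cannot be told apart.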

How the data were processed

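Poly(A) RNA was sequenced with a stranded kit. Per the submitters' processing notes, reads were trimmed with Trim Galore 0.6.7, aligned to GRCh38 with STAR 2.7.10a and counted with featureCounts. The deposited values are raw counts per gene, which the authors did not normalise. The annotation release, the strand setting and the treatment of reads with several positions are not given in the sources used here. Gene names and positions came from GENCODE 29, and promoters from RefSeq (GRCh38.p14).

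All 18 IMR-90 siRNA libraries were fitted together with edgeR 4.0.16 (filterByExpr, TMM scaling, quasi-likelihood test, Benjamini-Hochberg adjustment) in R 4.3.3, so that the spread was estimated over 6 groups. CPM were computed on TMM-scaled library sizes. The SE was the absolute log2 fold change divided by the square root of F. The procedure was also run on simulated counts, with libraries drawn independently and few genes changed. That simulation held no library that stood apart and no likeness between same-numbered libraries, so it does not cover these features of the data. Differences between experiments were interaction contrasts over 36 or 30 libraries. Alternatives were DESeq2 1.42.0, its size factors, no filter, a replicate block, only the groups compared, no mitochondrial genes, thinning to the shallowest library, and leaving out libraries. Depth ran from 24507142 to 79204217 counts over the 6 libraries compared and from 15206115 counts upwards over all 48. Counting intervals and floors cover counting error only, at a 95 % level and with a floor of 3 counts.

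The members and the gene lists were chosen with earlier results of these data known. Named genes were a fixed panel, the 12 highest and 12 lowest genes among those called whose groups did not overlap and whose mean log2 level reached 2, up to 4 highest and 4 lowest called genes of each list, and the 6 highest and 6 lowest of each contrast between experiments. Besides those marked in the text, LIF, BUB3, ORC3, DCN, HGF, IGFBP5, MTAP and TERT, and the markers of other cell types, fell outside this rule and were chosen after their values were seen. Results for some genes of the panel are not reported here.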

Additional observations from a re-analysis of the deposited data

Results flagged for a closer look

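The effect of doxorubicin differed between IMR-90 and SK-MEL-103 for 1914 genes with a higher value in IMR-90 and 2724 with a lower one (edgeR's quasi-likelihood interaction test, adjusted p below 0.05). With DESeq2 size factors the split was 2511 higher and 1893 lower, and the median of all genes was 0.13 in place of −0.03. All of the genes in the next sentences were flagged by that test, and each value is the IMR-90 effect minus the SK-MEL-103 effect on the log2 scale. Among markers and regulators of arrest, the differences were 0.61 for CDKN1A, 5.4 for SULF2, −2.48 for CDKN1C, −1.53 for RBL1, 1.41 for E2F1 and 2.34 for FOXM1. The topoisomerases TOP2A and TOP2B had 2.93 and −0.68, and LMNA and GLB1 had −1.74 and 0.57. Among secreted factors, IL1A had 5.11, GDF15 5.82, MMP3 9.97, CXCL8 5.86 and FGF2 5.28.

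The remaining genes were those at the ends of this contrast by the naming rule. JUP had a difference of 7.61, MAFF, a small partner of basic leucine zipper factors, 5.65, and the ETS factor ETV4 5.08. At the other end, OLFML2A had −7.99, the glycosyltransferase GALNT5 −5.38, the transcription factor SOX11 −4.58, the secretogranin SCG2 −3.86, SLC37A2 −3.61 and the RNA-binding protein KHDRBS3 −3.60. No alternative changed the sign of a gene named in these paragraphs. With DESeq2 size factors TOP2B (−0.52, adjusted p = 0.074) and GALNT5 (−5.24, adjusted p = 0.062) were not called. With 1 library left out, the highest adjusted p was 0.25 for CDKN1C (without IMR-90 proliferating 2), 0.13 for E2F1 (without IMR-90 doxorubicin 3), 0.086 for FOXM1 (without SK-MEL-103 doxorubicin 2) and 0.065 for TOP2B (without IMR-90 doxorubicin 1). It was 0.11 for GLB1 (without IMR-90 proliferating 3), 0.13 for GALNT5 (without SK-MEL-103 proliferating 1) and 0.13 for MMP3, whose difference was 4.99 without SK-MEL-103 proliferating 2. The other genes named here were called with each library left out. Line and experiment cannot be told apart here.

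Outside the comparison 1 library stood apart: siMAVS number 1 had 1872 CDKN2A counts and 1541 MTAP counts, while proliferating libraries had 0 CDKN2A counts. The siMAVS libraries 2 and 3 also had 0 CDKN2A counts, with 9 and 5 MTAP counts. The siMAVS 1 library held 1 TERT count, against 14736 to 144913 in the other 17 IMR-90 siRNA libraries. These values were thus not shared by the siMAVS group, and their cause was not tested.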

How the results depend on the processing

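The count of 9877 called genes lay between 7726 (thinned to the shallowest library) and 10754 (without siMAVS 1) under all alternatives but 1, and between 7875 and 10026 with 1 library left out in turn. With only the groups compared, so that the knockdown libraries gave no part of the spread, it was 7866. With the replicate block and only the groups compared it was 5255, with 2839 higher and 2416 lower. Whether the numbers pair the libraries is not settled. Deviations from the group mean in same-numbered libraries of the 2 groups correlated at 0.116, −0.580 and −0.407 over 17342 genes. The 3 deviations of a group sum to 0, so these correlations cannot decide it. CDKN2A held 89, 67, 56 and 47 counts in number 3 of the doxorubicin control, siMFN1, siMFN2 and siMFN1+2 groups. It held 0 in number 3 of the siMAVS and proliferating groups. The block over all groups called 10579. Without the filter 6324 were higher and 4351 lower, and the median of all genes was 0.50 in place of 0.09. The 4638 genes that differed between IMR-90 and SK-MEL-103 became 2591 with the replicate block and only the groups compared, and 3762 to 5068 with 1 library left out. Of the 4638, 1914 were positive and 2724 negative, a split that became 2511 and 1893 with DESeq2 size factors, 2812 and 2118 with DESeq2's test, 1932 and 1236 with only the groups compared, and 1600 and 991 with the block as well. Against day 9, DESeq2 called 20 genes, thinning 2, leaving out both doxorubicin 3 and proliferating 2 gave 2, and leaving out 1 library gave 0 to 8. Of 241 named called genes, 0 reversed, 49 lost their call with at least 1 library left out, and 45 under the replicate block with only the groups compared. CDKN1C, which was not called, changed sign: −0.00491 with the replicate block, −0.11 when thinned, and −0.44 to 0.95 with 1 library left out. The cause was not tested. Depth limits genes with few counts, whose folds are given as ratios or bounds.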
